A study of Homo sapiens with 7 samples.

Results

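CpG methylation was followed across the genes of the cardiac sarcomere during directed differentiation of HUES8 cells, an established line of human embryonic stem cells, to heart muscle cells. The genes were MYH6, MYH7, MYBPC3, MYL3, MYL4, MYL7, TNNT2, TNNI3, ACTN2 and TCAP, and their CpGs were taken by position, as those inside 10 fixed spans of the hg19 genome build that hold the genes with some flanking sequence. Enhanced reduced representation bisulfite sequencing reads methylated cytosine as C and unmethylated cytosine as T at CpGs near the cut sites of a restriction enzyme. It does not separate 5-methylcytosine from 5-hydroxymethylcytosine. Of 2587280 CpGs seen in any library, 548 lay in the 10 spans, and 371 of these were among the 1734462 CpGs with 10 or more reads in all 7 libraries. There was 1 library for each genotype and stage. The knockout cells carried disruptions of TET1, TET2 and TET3 together (TKO) and were taken at day 0, the stem cell stage (SC), at day 3, cardiac mesoderm (CME), and at day 8, cardiac progenitors (CP). Wild-type (WT) cells were sampled at the same stages and also as beating cardiomyocytes (CM, day 14), a state that TKO cells did not reach, per the series text. Genotype was the only difference stated between the TKO and WT cultures, and none was given a treatment beyond the differentiation protocol. That protocol activated and then blocked Wnt signalling in a monolayer, and after the CP stage it passed cells through a glucose-free lactate medium that enriches cardiomyocytes. The labels do not say how many knockout clones were used. The title of the WT CM library gives its stage; its description has day 15 where the series text has day 14, and another label of it reads CME.

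The sarcomere is the contractile unit of heart muscle. Myosin heavy chains (MYH6, MYH7) with their light chains (MYL3, MYL4, MYL7) and myosin-binding protein C (MYBPC3) form the thick filament, the troponin subunits (TNNT2, TNNI3) make the thin filament respond to calcium, and alpha-actinin (ACTN2) and telethonin (TCAP) hold filament ends at the Z-disc. These genes are silent in stem cells and become active as cardiomyocytes form. TET enzymes oxidise 5-methylcytosine, a step towards its removal. Comparing TKO with WT addresses how these CpGs differ when the TET genes are lost, and comparing WT stages addresses which change during normal differentiation.

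Without a replicate library no difference below can be set against the spread between cultures, and every Fisher p compares 1 library with 1 other. The files hold neither sequence nor expression, so the knockout itself and the state of the cells were not checked here. Median coverage at the 371 CpGs was between 67 and 99 reads in the TKO libraries and between 41 and 63 in the WT libraries. The share of C at mitochondrial CpGs, a measure of unconverted cytosine, was 0.139% to 0.387% in TKO libraries, and 1.46%, 1.44%, 0.219% and 0.216% in WT cells at SC, CME, CP and CM. WT SC and WT CME thus stood apart from the rest, and their descriptions also carry a suffix that the others lack. What the suffix marks is not stated. Differences of WT CP or WT CM from WT SC or WT CME fall across this same divide. In them stage cannot be told apart from whatever else sets these libraries apart. A level between 0% and 100% is a share of reads from a culture, so partly methylated cells and a mixture of cells cannot be told apart.

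The 371 CpGs averaged 50.2%, 50.03% and 53.8% in TKO cells at SC, CME and CP, against 48.4%, 48.6%, 41.8% and 42.3% in WT cells at SC, CME, CP and CM. Over all 1734462 CpGs the mean was 44.3%, 44.7% and 46.8% in TKO cells at SC, CME and CP and 41.8%, 42.5%, 39.3% and 39.7% in WT cells at SC, CME, CP and CM. A CpG was called different by Fisher's exact test (two-sided) at a Benjamini-Hochberg adjusted p below 0.01 over all CpGs, with levels at least 25 percentage points apart. In TKO CP against WT CP, 65 of the 371 CpGs (17.5%) were higher and 2 were lower, where 10.3% and 0.12% of all CpGs were called in those directions. In TKO SC against WT SC, 12 were higher and 0 lower, a share of 3.23% higher where 5.77% of all CpGs were higher and 0.261% lower. In TKO CME against WT CME, 11 were higher and 0 lower, a share of 2.96% higher where 5.9% of all CpGs were higher and 0.31% lower. In WT CM against WT SC, 22 CpGs (5.93%) were lower and 0 higher, where 1.63% of all CpGs were called lower and 0.196% higher. The 65 CpGs higher in TKO CP lay in the spans of 6 genes, with 25 in TNNI3, 24 in ACTN2, 12 in TCAP, 2 in TNNT2 and 1 each in MYL3 and MYL4. The spans include flanking sequence, and which gene each CpG of the TCAP span belongs to was not determined.

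**Figure D1:**
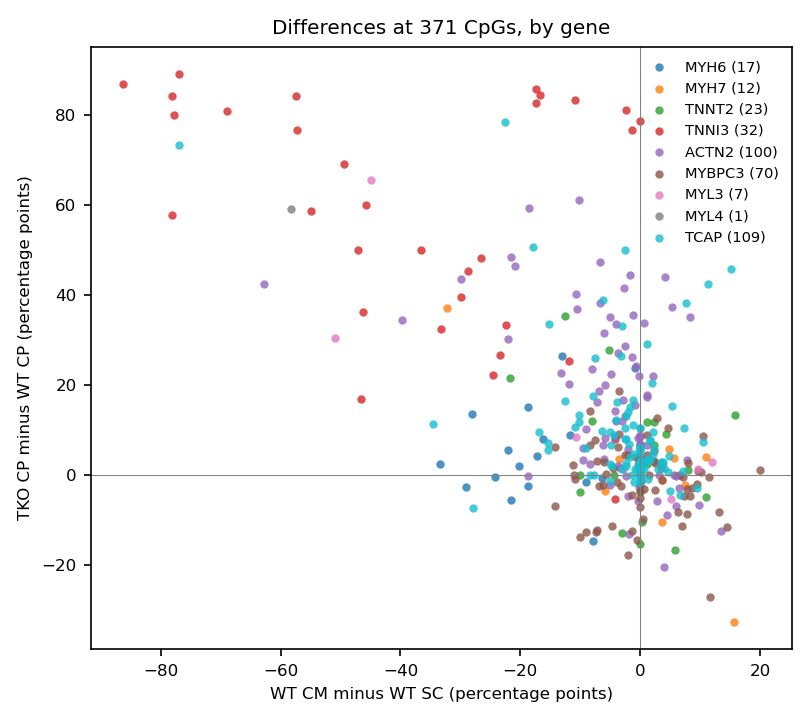
Difference in methylation level at each of 371 CpGs, in percentage points, for WT CM minus WT SC (horizontal axis) and TKO CP minus WT CP (vertical axis), coloured by gene with the number of CpGs in brackets. The upper left holds TNNI3 CpGs with the MYL4 CpG and single CpGs of TCAP, ACTN2 and MYL3, with lower levels in WT CM against WT SC and higher levels in TKO CP against WT CP; ACTN2 and TCAP also have CpGs that lie high on the vertical axis alone.

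TNNI3 encodes cardiac troponin I, the inhibitory subunit that holds back contraction until calcium binds. It had more called CpGs in TKO CP against WT CP than any of the other 9 genes, 25 of the 32 that were shared by all libraries. All 32 fell into 3 groups on chromosome 19, each with CpGs no more than 300 bases apart (called clusters here). Their place relative to the transcription start came from matching the CpG spacing of the RefSeq promoter sequence to the deposited hg19 positions, where 8 of its 11 CpGs matched and the next best place matched 3. This put the start at chr19:55669100 on the minus strand. The 250 bases before it are shown because the largest loss in WT cells and the largest genotype difference fell there. They are chr19:55157733-55157982 (minus strand) in build GRCh38.p14, and capitals mark the 4 CpGs read in all 7 libraries.
TNNI3: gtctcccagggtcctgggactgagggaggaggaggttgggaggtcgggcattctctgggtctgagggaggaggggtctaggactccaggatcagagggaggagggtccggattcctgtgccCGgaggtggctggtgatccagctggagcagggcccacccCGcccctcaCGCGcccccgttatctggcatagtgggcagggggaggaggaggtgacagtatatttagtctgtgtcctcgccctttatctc
The window from 250 bases before to 50 bases after the start held 6 shared CpGs. Its level was 88.2%, 88.8% and 90.3% in TKO cells at SC, CME and CP, against 87.4%, 85.5%, 10.5% and 9.42% in WT cells at SC, CME, CP and CM. The promoter was thus heavily methylated in all 3 TKO libraries and in the 2 early WT libraries, and little methylated in the 2 late WT libraries. The difference was 79.75 points in TKO CP against WT CP (adjusted p = 6.72e-81 over 14266 promoter windows, of which 6.17% were called higher and 0.112% lower). In WT CM against WT SC it was -77.9 points (adjusted p = 2.5e-66, with 0.862% of windows called lower). In TKO SC against WT SC it was 0.86 points and was not called (adjusted p = 0.787, with 3.99% of windows called higher). Nor was the window called in TKO CME against WT CME, where 3.93% of windows were called higher.

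At single-CpG resolution the CpG 128 bases before the start, at 55669228, had 93.6%, 87.5% and 95.5% in TKO cells at SC, CME and CP, against 80%, 87.5%, 6.38% and 3.12% in WT cells at SC, CME, CP and CM. Its difference of 89.1 points in TKO CP against WT CP rested on 44 and 47 reads and was the largest called one in the 10 genes (adjusted p = 2.28e-18). The CpG 78 bases before the start, at 55669178, had the largest called loss in WT CM against WT SC, at -86.3 points (adjusted p = 9.6e-09), with 9.38% in WT CM and 95.7% in WT SC. It had 86.1%, 93.7% and 97.7% in TKO cells at SC, CME and CP. The letters GATAA, the core that GATA factors are known to recognise, occurred 2 times in the printed bases on either strand, nearest to the shared CpGs at 71 bases before the start. They occur in 20.4% of 35116 RefSeq promoters of the same 250-base length.

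The cluster around the start held 14 CpGs from 55668903 to 55669228. Over it the level was 88.7%, 82.3% and 87.2% in TKO cells at SC, CME and CP, against 84.5%, 82.7%, 30.9% and 37.6% in WT cells at SC, CME, CP and CM. The 95% Wilson interval of the reads was 84.8% to 89.3% for TKO CP and 27.9% to 34.2% for WT CP. Nearly all of the WT decline fell between CME and CP, with a difference of -51.8 points in WT CP against WT CME (adjusted p = 1.95e-107 over 131586 clusters, of which 4.33% were called lower). The decline was uneven along the cluster. CpGs from 128 bases before to 41 bases after the start were at 4.35% to 15.2% in WT CP, whereas the CpGs 148 to 197 bases after it were between 61.3% and 75.8% in that library.

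A second cluster of the TNNI3 span, 11 CpGs from 55670642 to 55671019, lay 1542 to 1919 bases before the start. It is thus outside TNNI3 as placed here, and whether it lies within a neighbouring gene was not determined. It had 82.3%, 75.7% and 81.0% in TKO cells at SC, CME and CP, against 78.6%, 75.1%, 34.0% and 39.7% in WT cells at SC, CME, CP and CM. As at the start, WT CP and WT CM stood below all the other libraries, and the TKO libraries stayed high. Its lowest CpG, 1598 bases before the start, was at 86.3% in TKO CP, against 2.08% in WT CP.

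The third cluster, 7 CpGs from 55667592 to 55667734, lay 1366 to 1508 bases inside the gene and had another pattern. Its level was 83.2%, 85.1% and 94.2% in TKO cells at SC, CME and CP, against 32.3%, 31.2%, 12.3% and 19.7% in WT cells at SC, CME, CP and CM. TKO cells were therefore above WT cells already as stem cells, by 51.0 points (adjusted p = 9.58e-27, where 4.45% of clusters were called higher), and by 81.9 points at CP (adjusted p = 1.68e-87). All 7 CpGs were called higher in TKO CP and 5 of them in TKO SC, where they made up 5 of the 12 called CpGs of all 10 genes. WT SC rested on 127 reads over the 7 CpGs and WT CP on 342. Whether these CpGs lie in an exon or an intron was not determined, since no hg19 annotation was used here.

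**Figure D2:**
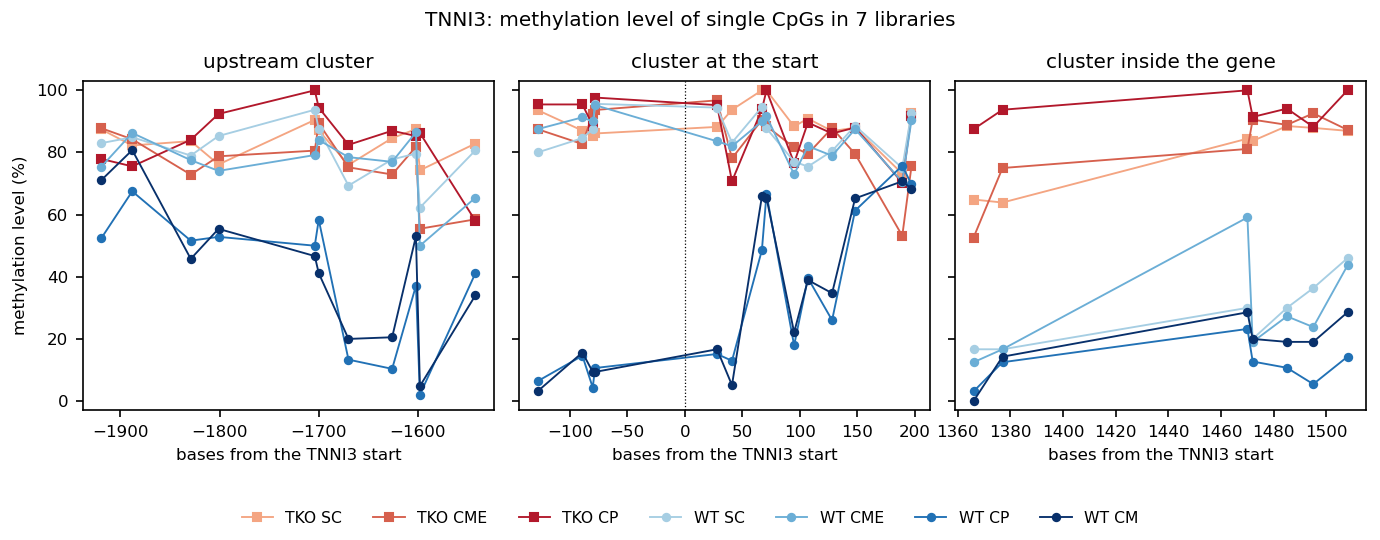
Methylation level (%) of single CpGs of TNNI3 against distance in bases from its start, in 3 panels for the upstream cluster, the cluster at the start and the cluster inside the gene; squares are the 3 TKO libraries and circles the 4 WT libraries. In the first and second panels WT CP and WT CM run below the other libraries at most CpGs, while in the third all 4 WT libraries run below all 3 TKO libraries.

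In 1 kb tiles of 5 or more shared CpGs, 25 of 85087 tiles fell in the 10 spans, and the only called ones were the 4 of TNNI3. In TKO CP against WT CP, 4 of 25 were higher (12% of all tiles), in TKO SC against WT SC 1 (6.26%) and in TKO CME against WT CME 1 (6.02%). In WT CP against WT CME 3 were lower (3.38% of all tiles), and in WT CM against WT SC 3 (2.81%). No tile of the 10 genes was called in WT CME against WT SC (0.04% of all tiles, in either direction), WT CM against WT CP (0.0529%), TKO CME against TKO SC (0.0411%) or TKO CP against TKO CME (0.832%). The median difference of the 25 tiles in TKO CP against WT CP was 3.44 points, and that of all tiles was 1.3 points. In all 4 TNNI3 tiles the gap between TKO and WT widened by CP relative to SC, by a z test on the reads, as it did in 5.67% of all tiles. A linear model of genotype plus stage over the 3 shared stages (limma, with 2 residual degrees of freedom) called 1 of the 25 tiles, the one inside TNNI3, with a mean difference of 62.2 points (adjusted p = 0.00169, with 6.04% of tiles called higher). At an unadjusted p below 0.05 this model held 7 of the 25 tiles and 20.7% of all tiles. It called 0 of the 25 on the logit scale and 0 of the 17 left when 20 reads were required. That setting also ended the calls in TKO SC against WT SC and TKO CME against WT CME. It removes tiles before testing, so a call lost there need not be a test that failed. The tile inside TNNI3 had 127 WT SC reads over 7 CpGs.

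TNNT2, cardiac troponin T, ties the troponin complex to tropomyosin. Its 23 shared CpGs stayed high, at 88.5%, 84.5% and 90.4% in TKO cells at SC, CME and CP, against 88.6%, 89.6%, 84.4% and 88.1% in WT cells at SC, CME, CP and CM. The 4 CpGs from chr1:201331529 to 201331656 were an exception, with 80.7%, 77.0% and 89.1% in TKO cells at SC, CME and CP, against 77.5%, 76.7%, 60.3% and 69.3% in WT cells at SC, CME, CP and CM. The difference at CP was 28.8 points (adjusted p = 3.42e-10, where 10.8% of clusters were called higher), and the difference in WT CM against WT SC was not called. Among them the CpG at 201331570 had the largest called difference of the gene, at 95.9% in TKO CP, against 60.7% in WT CP (adjusted p = 4.9e-07). The RefSeq promoter of TNNT2 could not be placed on the deposited positions, and the distance of these CpGs from the start is not known here.

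ACTN2 encodes alpha-actinin, which crosslinks actin filaments at the Z-disc. Its start lies in a CpG-dense stretch, and all 45 CpGs of the RefSeq promoter matched deposited positions, which put the start at chr1:236849799 on the plus strand. The 250 bases before it (chr1:236686249-236686498, plus strand, GRCh38.p14) are shown for contrast with the CpG-poor TNNI3 promoter. Capitals mark CpGs read in all 7 libraries.
ACTN2: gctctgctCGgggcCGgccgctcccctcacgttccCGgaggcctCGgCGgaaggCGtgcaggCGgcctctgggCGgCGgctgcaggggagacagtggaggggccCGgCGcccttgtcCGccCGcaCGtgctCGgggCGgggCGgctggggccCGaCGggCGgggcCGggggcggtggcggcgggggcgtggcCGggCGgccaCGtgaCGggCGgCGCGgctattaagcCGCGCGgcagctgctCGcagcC
It held 38 CpGs, of which 32 were shared, against 8 and 4 in the TNNI3 sequence, and no GATAA. The promoter window with 39 shared CpGs was at 3.82%, 7.3% and 13.3% in TKO cells at SC, CME and CP, against 2.3%, 3.41%, 0.467% and 0.566% in WT cells at SC, CME, CP and CM. Unlike TNNI3, this promoter was nearly unmethylated in every WT library. The difference at CP was 12.8 points, short of the 25 points needed for a call.

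The methylation in TKO cells sat on the flanks of the unmethylated stretch. In limits drawn after the values were seen, the 14 CpGs from 312 to 203 bases before the start had a median of 23.9%, 28.7% and 41.2% in TKO cells at SC, CME and CP, against 6.94%, 12.8%, 2.64% and 4.3% in WT cells at SC, CME, CP and CM. Of these 14 CpGs, 11 were called higher in TKO CP. The 37 CpGs from 196 bases before to 148 after the start had a median of 0.935%, 3.03% and 3.92% in TKO cells at SC, CME and CP, against medians of 0.847% or less in each WT library, and 2 of the 37 were called. The 26 CpGs from 151 to 441 bases after the start had a median of 14.3%, 12.0% and 17.3% in TKO cells at SC, CME and CP, against 7.17%, 5.76%, 3.39% and 2.32% in WT cells at SC, CME, CP and CM, and 8 were called. The largest called difference was at 236850198, 399 bases after the start, which was at 70.1% in TKO CP, against 9.09% in WT CP (adjusted p = 2.96e-12). Of the 24 ACTN2 CpGs higher in TKO CP, 16 were below 20% in WT SC, as were 72 of all 100 shared ACTN2 CpGs.

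**Figure D3:**
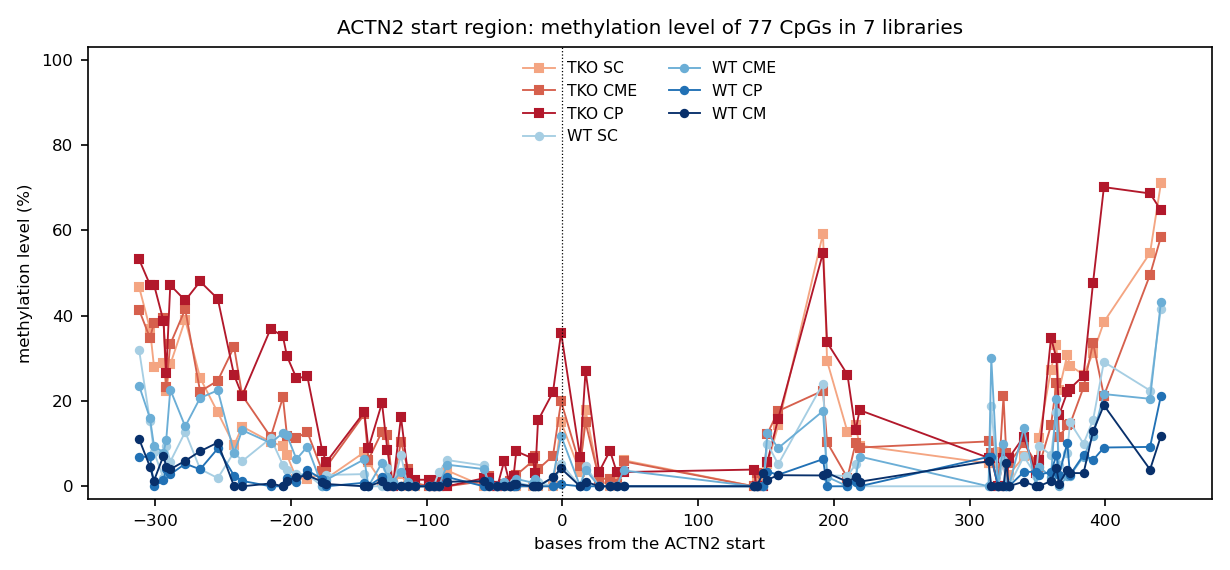
Methylation level (%) of 77 CpGs around the ACTN2 start against distance in bases, for 3 TKO libraries (squares) and 4 WT libraries (circles). TKO CP is the highest library at most CpGs of the left flank, where it reaches 53.2%, and at the right edge, where it reaches 70.1%, and the libraries come together near 0% in much of the middle.

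Inside ACTN2 a different pattern appeared 14223 to 14314 bases after the start. The 4 CpGs there, from 236864022 to 236864113, were at 75.8%, 74.6% and 73.0% in TKO cells at SC, CME and CP, against 68.1%, 72.8%, 39.5% and 34.4% in WT cells at SC, CME, CP and CM. Here WT cells lost methylation and TKO cells kept it, as at the TNNI3 start. The difference in TKO CP against WT CP was 33.5 points (adjusted p = 6.03e-14) and in WT CM against WT SC it was -33.8 points (adjusted p = 1.11e-15, where 3.71% of clusters were called lower). The other 3 clusters inside ACTN2 were between 72.1% and 97.9% in all 7 libraries, and none was called.

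TCAP, telethonin, caps the ends of titin at the Z-disc. Its span includes sequence beyond TCAP itself, and which neighbouring genes it overlaps was not determined. No promoter sequence of TCAP was matched, so the place of each cluster relative to the TCAP start is not known here. The 3 CpGs from chr17:37821433 to 37821478 were at 87.5%, 90.5% and 84.5% in TKO cells at SC, CME and CP, against 87.2%, 91.6%, 56.1% and 42.7% in WT cells at SC, CME, CP and CM. The CpG at 37821478 had 90.6%, 92.9% and 100% in TKO cells at SC, CME and CP, against 88.1%, 90.3%, 26.7% and 11.1% in WT cells at SC, CME, CP and CM. This CpG had the lowest level of the 3 in WT CM, where its neighbours at 37821433 and 37821447 were at 58.3% and 56.1%. It differed by 73.3 points in TKO CP against WT CP (adjusted p = 5.77e-11) and by -76.9 points in WT CM against WT SC (adjusted p = 3.21e-12).

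Of the 109 shared CpGs in the TCAP span, 87 lay in 1 dense run from 37823750 to 37824929 that was little methylated, at 4.49%, 8.71% and 9.03% in TKO cells at SC, CME and CP, against 2.94%, 3.73%, 0.667% and 1.47% in WT cells at SC, CME, CP and CM. TKO cells were higher mainly at its left edge. The outermost CpG, 37823750, was at 75.0%, 82.5% and 78.6% in TKO cells at SC, CME and CP, against 22.5% and 34.9% in WT cells at SC and CME. No C was read there in 27 reads of WT CP or in 22 reads of WT CM. Counts of 0 allow levels of up to 11.1% in WT CP and 13.6% in WT CM, at 3 reads. Of the 26 CpGs up to 37823993, 8 were called higher in TKO CP, and of the 61 CpGs from 37824012 onwards 1 was. This gain at the edge of a little-methylated run resembles that at the ACTN2 flanks in its values, while the CpG at 37821478 resembles the TNNI3 start.

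**Figure D4:**
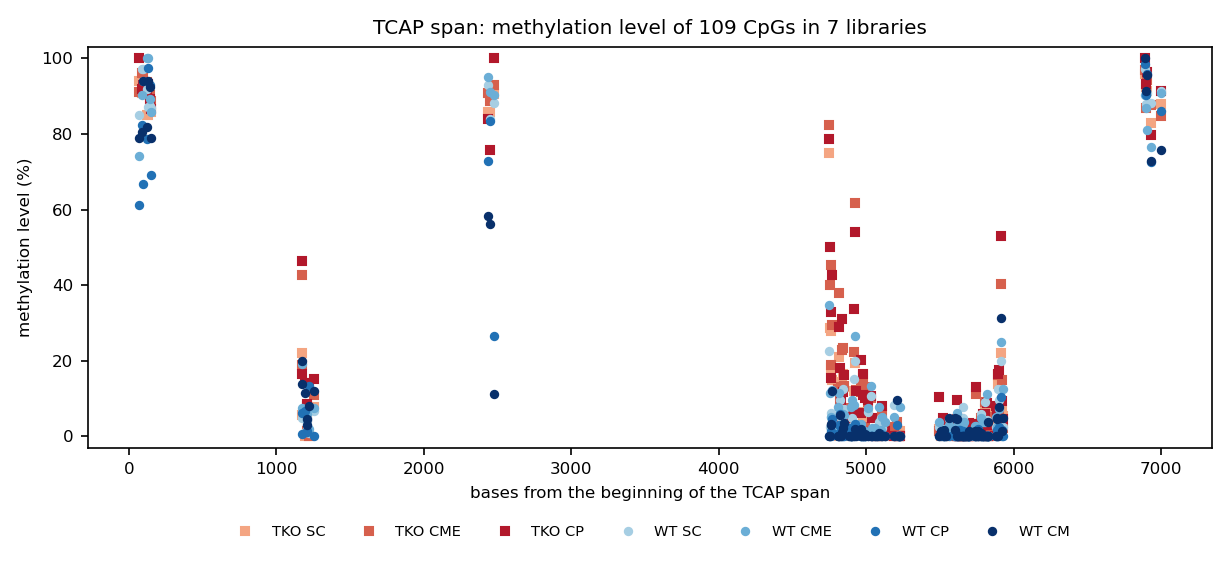
Methylation level (%) of 109 CpGs of the TCAP span against distance in bases from the beginning of the span, for 3 TKO libraries (squares) and 4 WT libraries (circles). The group of 3 CpGs near the middle separates WT CP and WT CM from the rest, and in the dense run to its right the TKO libraries reach 82.5% at the left edge and stay low inside.

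Among the thick filament genes the CpGs were fewer. MYL3, the ventricular essential light chain, had 7 shared CpGs. Its start was placed at chr3:46903174 on the minus strand by 4 of 7 promoter CpGs, against 2 at the next best place, which makes it the least certain of the 3 placements. RefSeq holds another MYL3 promoter, which was placed outside the span, at chr3:46923672, by 38 of 39 CpGs. Its 31 shared CpGs were at 0.32%, 0.286% and 0.579% in TKO cells at SC, CME and CP, against 1.12%, 1.42%, 0.073% and 0.177% in WT cells at SC, CME, CP and CM, and it was not called in any comparison. The 250 bases before the start at 46903174 (chr3:46861685-46861934, minus strand, GRCh38.p14) hold a called CpG 176 bases before the start and a neighbour at 206 bases, which are in capitals.
MYL3: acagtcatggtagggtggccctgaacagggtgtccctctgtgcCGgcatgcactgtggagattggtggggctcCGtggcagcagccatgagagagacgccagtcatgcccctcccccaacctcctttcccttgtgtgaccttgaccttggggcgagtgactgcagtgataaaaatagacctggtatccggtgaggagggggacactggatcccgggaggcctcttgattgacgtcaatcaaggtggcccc
The CpG 176 bases before the start, at 46903350, had 80.3%, 78.7% and 92.9% in TKO cells at SC, CME and CP, against 66.7%, 79.2%, 27.3% and 21.7% in WT cells at SC, CME, CP and CM. The TKO CP value rested on 14 reads and the WT CP value on 22, and the difference of 65.6 points was called (adjusted p = 0.00122). Its neighbour at 46903380 had 91.5%, 78.7% and 100% in TKO cells at SC, CME and CP, against 85.7%, 92.0%, 69.6% and 34.8% in WT cells at SC, CME, CP and CM, and was not called in TKO CP against WT CP (adjusted p = 0.159) or in WT CM against WT SC (adjusted p = 0.0131). The sequence held GATAA 1 time, 84 bases before the start. The other 5 MYL3 CpGs were between 69.7% and 100% in all libraries.

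MYL4, the atrial essential light chain, had 1 shared CpG, at chr17:45287593. It was at 81.7%, 69.2% and 80% in TKO cells at SC, CME and CP, against 84.2%, 73.9%, 20.8% and 26.0% in WT cells at SC, CME, CP and CM. The difference was 59.2 points in TKO CP against WT CP (adjusted p = 3.84e-11, on 65 and 72 reads) and -58.2 points in WT CM against WT SC (adjusted p = 0.000422, on 73 and 19 reads). By Euclidean distance over the 7 libraries its level was nearest to that of the TNNI3 span, at 19.2 points, and the next nearest span, MYH6, was at 82.2 points. MYL7, the atrial regulatory light chain, had 0 CpGs in any library.

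**Figure D5:**
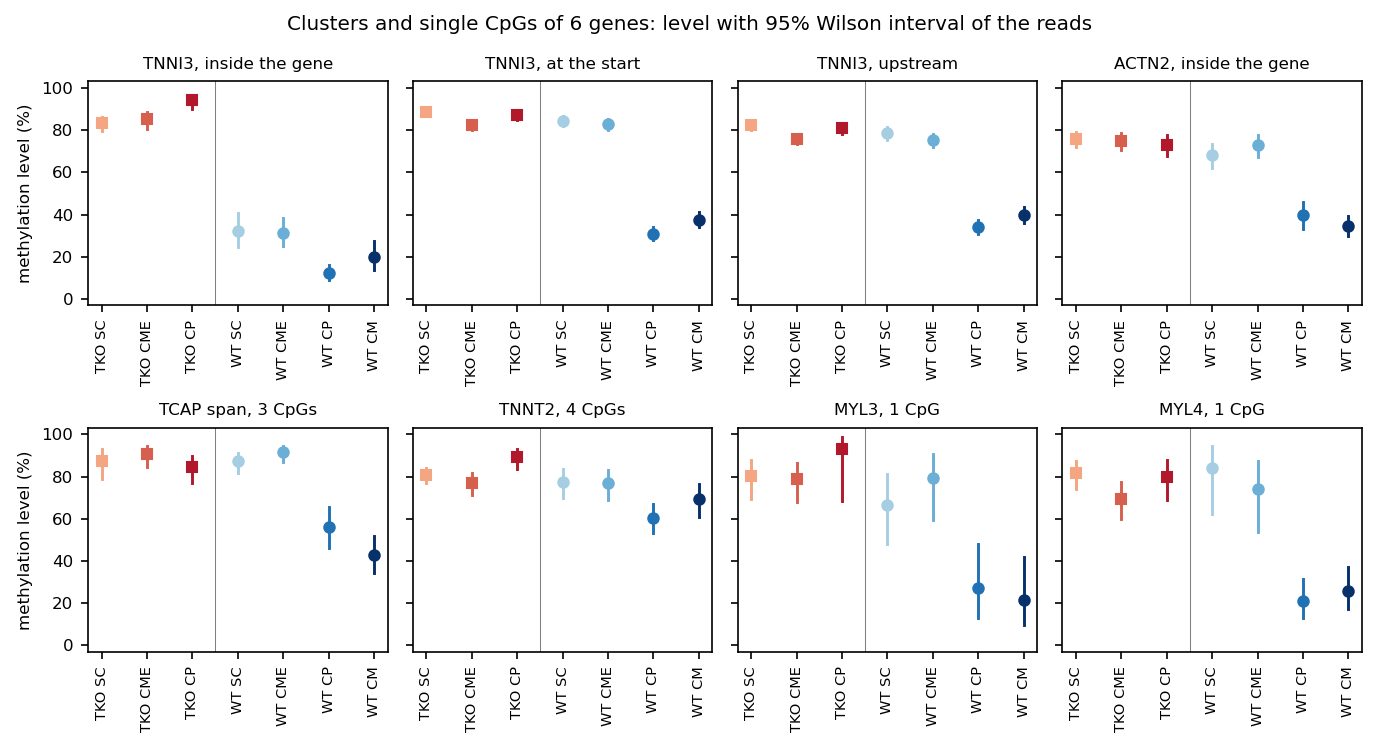
Methylation level (%) in each of 7 libraries for 6 clusters and 2 single CpGs of 6 genes, with the 95% Wilson interval of the reads as a vertical bar; the 3 TKO libraries stand left of the grey line and the 4 WT libraries right of it. The ACTN2, TNNT2 and MYL3 units were picked for the largest difference in TKO CP against WT CP in their gene. The TCAP cluster was picked for the largest loss in WT CM against WT SC. The pattern of these panels thus follows in part from the choice, and other clusters of these genes are not drawn. In 7 of the 8 panels WT SC and WT CME lie near the TKO libraries and WT CP and WT CM lie lower. For the cluster inside TNNI3 all WT libraries lie low.

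MYH6 encodes the fast alpha myosin heavy chain, MYH7 the slow beta chain, and they lie next to each other on chromosome 14. The 17 shared MYH6 CpGs were at 86.6%, 81.3% and 86.6% in TKO cells at SC, CME and CP, against 93.1%, 88.0%, 82.6% and 75.5% in WT cells at SC, CME, CP and CM. WT levels were lower at each later stage, and the 10 CpGs of the tile from 23876243 to 23876911 differed by -17.2 points in WT CM against WT SC (adjusted p = 3.37e-17), short of the 25 points needed for a call. The CpG at 23858686 was the only one called, at 65.6% in WT CM, against 94.7% in WT SC (adjusted p = 0.00884). The 12 shared MYH7 CpGs were at 90.7%, 86.3% and 89.3% in TKO cells at SC, CME and CP, against 92.6%, 89.2%, 90.5% and 95.5% in WT cells at SC, CME, CP and CM. Its CpG at 23896771 was lower in TKO CP, at 60% of 30 reads, against 92.7% of 41 reads in WT CP (adjusted p = 0.00912). MYBPC3, which tethers myosin heads and is a common site of cardiomyopathy mutations, had 70 shared CpGs at 83.1%, 82.3% and 82.6% in TKO cells at SC, CME and CP, against 87.6%, 87.7%, 82.3% and 84.0% in WT cells at SC, CME, CP and CM. Its CpG at chr11:47371421 was lower in TKO CP, at 71.6%, against 98.7% in WT CP (adjusted p = 5.92e-06). No MYH6, MYH7 or MYBPC3 CpG was called higher in TKO than in WT at any stage. Of all CpGs, 5.77%, 5.9% and 10.3% were called higher at SC, CME and CP. In WT SC, however, 17 of 17 MYH6, 11 of 12 MYH7 and 63 of 70 MYBPC3 CpGs were above 80%. A CpG above 80% in the WT library cannot rise by the 25 points needed for a call. These counts cover SC only and were not made for WT CME or WT CP. In WT CP the MYH6 clusters were at 79.2%, 84.4% and 74.1%.

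The CpGs that WT cells lost were largely those that TKO cells kept, in these genes as over the genome. The 22 CpGs called lower in WT CM were in the spans of TNNI3 (16), ACTN2 (3), MYH6, MYL4 and TCAP (1 each). The TKO libraries had no part in that choice. At these 22 CpGs the TKO CP level was between 58.0% and 100% with a median of 87.6%, and the median was 87.0% in TKO SC and 82.2% in TKO CME. Of the 22, 20 were also called higher in TKO CP against WT CP, and these calls rest on 1 library each. Over the genome the same held for 79.5% of the 28319 CpGs called lower in WT CM. Many of these CpGs are neighbours on the same reads and are not independent of each other. Of the 65 CpGs higher in TKO CP, 25 were below 20% in WT SC, with 16 of these in the ACTN2 span and 7 in the TCAP span. Another 24 were between 20% and 80%, and 16 were above 80%. Of all 371 shared CpGs, 169 were below 20% in WT SC, with 72 in the ACTN2 span and 91 in the TCAP span. A further 170 were above 80%, so the class from 20% to 80% was the smallest of the 371. The clusters nearest in level to the TNNI3 start over the 7 libraries were the upstream TNNI3 cluster at 15.2 points, the TCAP cluster of 3 CpGs at 28.7 and the ACTN2 cluster of 4 CpGs at 29.6.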

How the data were processed

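DNA methylation was measured in 7 libraries, 1 per genotype and stage, grouped by sample title. Alignment and calling were done at a core facility, per the labels' protocols, on build hg19, per the submitters' processing notes; which aligner and caller is not given in the sources used here. For each cytosine the deposited files list a coverage count and the percent of reads with C and with T, per the file headers, and every line had a count of at least 10. Total coverage was 120742115 to 213058905 per library. Reads of both strands were summed per CpG, and a level is C over C plus T. CpGs with 10 or more reads in all 7 libraries were kept. Units were single CpGs, 1 kb tiles of 5 or more CpGs, and clusters of 3 or more CpGs at most 300 bases apart. Each was tested by Fisher's exact test (two-sided, a routine compiled with numba 0.67.0) with Benjamini-Hochberg adjustment over all units of its kind. Tiles were also fitted with limma 3.58.1 in R 4.3.3 on the arcsine square root scale. The Fisher, z and limma tests on tiles and the placement of promoters were tested on simulated data. Intervals and the p-values of the Fisher and z tests cover counting error only, and reads that span several CpGs count at each. The limma p-values rest on the spread between libraries, with 2 residual degrees of freedom per tile, and stages are not replicate cultures. Of 35116 RefSeq promoter sequences, 15383 could be placed by CpG spacing, and 92.9% of 14800 neighbouring pairs kept the same distance between builds; this step was added after the data were seen. Sequences are from RefSeq, GRCh38.p14, matched for 7 of the 10 genes and placed within the spans for 3. The genes named are the 10 genes, with every called tile and the CpG of largest called difference per gene in TKO CP against WT CP. The genes, lists and tests were chosen with earlier results of these data known.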

Additional observations from a re-analysis of the deposited data

Results flagged for a closer look

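The difference between TKO and WT changed with stage in the 4 tiles of TNNI3 on chromosome 19, by a z test of the change itself. From SC to CP it grew by 30.9 points in the tile inside the gene, at 55667001 to 55668000, where TKO was already higher as stem cells. It grew by 35.7 points in the tile at 55668001 to 55669000 and by 67.4 points in the tile at 55669001 to 55670000, which together hold the cluster at the start. In the upstream tile, at 55670001 to 55671000, it grew by 44.8 points. Coverage and the share of unconverted cytosine differed between WT SC and WT CP. The part of coverage in the change was not tested. With the mitochondrial share of C subtracted, an alternative added after the data were seen, 4 tiles of the 10 genes were called. That share was at most 1.46%, in WT SC, and the smallest change was 30.9 points against the 25 needed. The subtraction could therefore hardly have removed a call, and no conclusion is drawn from it.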

How the results depend on the processing

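No paired analysis was possible because each group holds 1 library; the stage is a term of the limma model. Of 90 alternatives to the counts of called tiles and CpGs, 74 stayed within 1.5 times and 16 moved. Requiring 20 reads left 17 tiles of the 10 genes, with counts of 0 in TKO SC against WT SC, 0 in TKO CME against WT CME and 0 in the limma model, where 4 tiles had an unadjusted p below 0.05 (22.1% of all tiles). Tiles of 3 or more CpGs gave 7 in TKO CP against WT CP, 5 in WT CP against WT CME, 5 in WT CM against WT SC and 7 for the change from SC to CP. A difference of 40 points left 2 tiles for that change, and 6, 6 and 41 CpGs in TKO SC, TKO CME and TKO CP against WT. Requiring 10 reads on each strand left 71 CpGs, with counts of 0, 0 and 9 in those comparisons and 1 in WT CM against WT SC. On the logit scale limma called 0 of the 25 tiles and 0 of all 85087, with 6 of the 25 at an unadjusted p below 0.05 (18.8% of all tiles). Of 52 alternatives for the level differences of whole spans, 36 stayed within the counting interval and 16 moved, of which 6 changed sign, in the MYBPC3 and MYL3 spans. The MYL3 span difference in TKO CP against WT CP was 10.8 points, and it was -0.68 points at 20 reads and 28.3 points over all CpGs of each library. The MYL3, MYL4 and single-CpG values rest on few reads.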

Other observations

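Beyond the 10 genes, 18 of 33 other sarcomere genes listed had a RefSeq promoter sequence and 8 could be placed and tested, in 11 windows. In TKO CP against WT CP 3 of the 8 genes were called higher in at least 1 window and 0 lower, where 6.17% of all 14266 promoter windows were higher and 0.112% lower. The count is by gene and the share by window, so they are not in like units. LDB3 and NEBL had more than 1 window. Those of LDB3 overlap, as do 2 of the 3 of NEBL. The windows of LDB3, a Z-disc PDZ and LIM protein, were called higher in TKO at all 3 stages and lower in WT CM against WT SC. Of all windows 3.99% were higher in TKO at SC and 3.93% at CME, and 0.862% were lower in WT CM against WT SC. The window of 7 CpGs was at 76.8%, 75.4% and 68.8% in TKO cells at SC, CME and CP, against 48.8%, 47.2%, 6.73% and 5.58% in WT cells at SC, CME, CP and CM. ACTA1, skeletal muscle alpha-actin, was at 20.1%, 31.4% and 49.6% in TKO cells at SC, CME and CP over 3 CpGs, against 1.69%, 2.79%, 0.98% and 0.485% in WT cells at SC, CME, CP and CM. In 1 of the 3 NEBL windows TKO was higher at all 3 stages, at 33.9%, 45.4% and 26.9%, against 7.64%, 13.1%, 0.933% and 2.22% in WT cells at SC, CME, CP and CM. ACTC1, cardiac alpha-actin, was at 3.19%, 9.00% and 11.9% in TKO cells at SC, CME and CP over 12 CpGs, against 3.6%, 4.94%, 0.235% and 0.214% in WT cells at SC, CME, CP and CM, and was not called. The other 2 NEBL windows and those of NEXN, TPM1, FLNC and TMOD1 were below 3% in all 7 libraries.

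The MYBPC3 CpG at 47371129 had 0 C reads of 959 over the 7 libraries, while its neighbours within the cluster from 47371044 to 47371441 were highly methylated. If the site is a CpG in these cells, this allows a level of up to 0.313% at 3 reads. A sequence variant with T in place of C would read the same as unmethylated C. The files hold no sequence, so such a variant cannot be told apart from an unmethylated CpG here.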
